A study of Mus musculus with 4 samples.

Results

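The blood-retina barrier nutrient transporters described here are 10 genes, Mfsd2a, Slco1c1, Slc38a5, Slc2a1, Slc7a5, Slc7a1, Slc16a1, Slc39a8, Slc38a3 and Tfrc. They were chosen by symbol as carriers and receptors known from the endothelium of brain or retina, and all 10 were found among the 23278 genes of the deposited table. Retinal capillaries with a barrier are sealed by tight junctions, so nutrients pass through the endothelial cells on membrane transporters. In the retinal vasculature Norrin, the secreted product of Ndp, acts on the receptor Frizzled-4 and its coreceptors, and beta-catenin (Ctnnb1) carries the signal to target genes. Endothelial beta-catenin signalling is known to be needed for barrier properties of vessels in the central nervous system, the expression of several transporters among them.

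RNA of whole retinas at postnatal day 10 was sequenced from 4 genotypes, with 1 library each. The stabilized NdpKO library came from NdpKO;Ctnnb1flex3/+;Pdgfb-CreER mice, and the stabilized library from Ctnnb1flex3/+;Pdgfb-CreER mice with intact Ndp. The NdpKO library lacked functional Ndp by its label and carried neither other allele, and the WT library carried none of them. Ctnnb1flex3 yields a beta-catenin that escapes degradation once Cre has removed an exon, and Pdgfb-CreER is a tamoxifen-activated Cre driven by an endothelial promoter, so stabilization was directed to endothelial cells. The share of cells that recombined was not analysed here. All mice, the controls too, were of a mixed strain that contains at least C57BL6 and 129, and received 20 ug of 4HT (4-hydroxytamoxifen, which activates CreER) into the peritoneum at postnatal day 3. Each library pooled RNA of 3 batches of 4 to 8 retinas, from 2 to 4 mice a batch, so no spread between mice is left.

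Values are FPKM, fragments set per length of transcript and per size of the library, with the intervals the authors deposited, which cover the estimate within a library and not animals. Ratios are log2 of FPKM + 0.5, which understates changes of low genes, and 1.5-fold on that scale is the size used for counts. Genes whose mean reached 1 FPKM with a status of OK in every library were tested, 13150 in number, with all 10 transporters among them. Slco1c1, Slc38a5 and Slc39a8 were under 1 FPKM in NdpKO and in WT and passed through the stabilized libraries. Mfsd2a, at 0.545 FPKM in NdpKO and 1.20 FPKM in WT, also reached a mean of 1 FPKM only through the stabilized libraries. Estimated from interval widths, depth was 0.577 of that of WT in the stabilized NdpKO library, 0.426 in the stabilized library and 0.536 in the NdpKO library. Ndp itself was at 0.869 FPKM in the stabilized NdpKO library, 2.35 FPKM in the stabilized library, 0.873 FPKM in NdpKO and 2.98 FPKM in WT. Xist, which silences an X chromosome in female cells, was measured at 1.28 FPKM in the stabilized NdpKO library, 130 FPKM in the stabilized library, 1.25 FPKM in NdpKO and 135 FPKM in WT. Loss of Ndp and the sex of the pooled mice therefore cannot be told apart, and Slc38a5 lies on the X chromosome. In whole-retina RNA, fewer cells of a type and less RNA per cell cannot be told apart either.

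The 10 genes divided into 6 whose RNA was higher with stabilized endothelial beta-catenin in at least 1 Ndp state and 4 that lay within 1.5-fold in every comparison. Mfsd2a, Slco1c1, Slc38a5, Slc7a1 and Slc7a5 were higher in the stabilized library than in WT, and these 5 and Slc39a8 were higher in the stabilized NdpKO library than in NdpKO. Mfsd2a, Slco1c1, Slc38a5 and Slc39a8 were lower in NdpKO than in WT. Slc2a1, Slc38a3, Slc16a1 and Tfrc made up the set with little difference, and 3 of them, Slc2a1, Slc38a3 and Tfrc, were among the 4 most abundant of the 10 in WT.

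**Figure D1:**
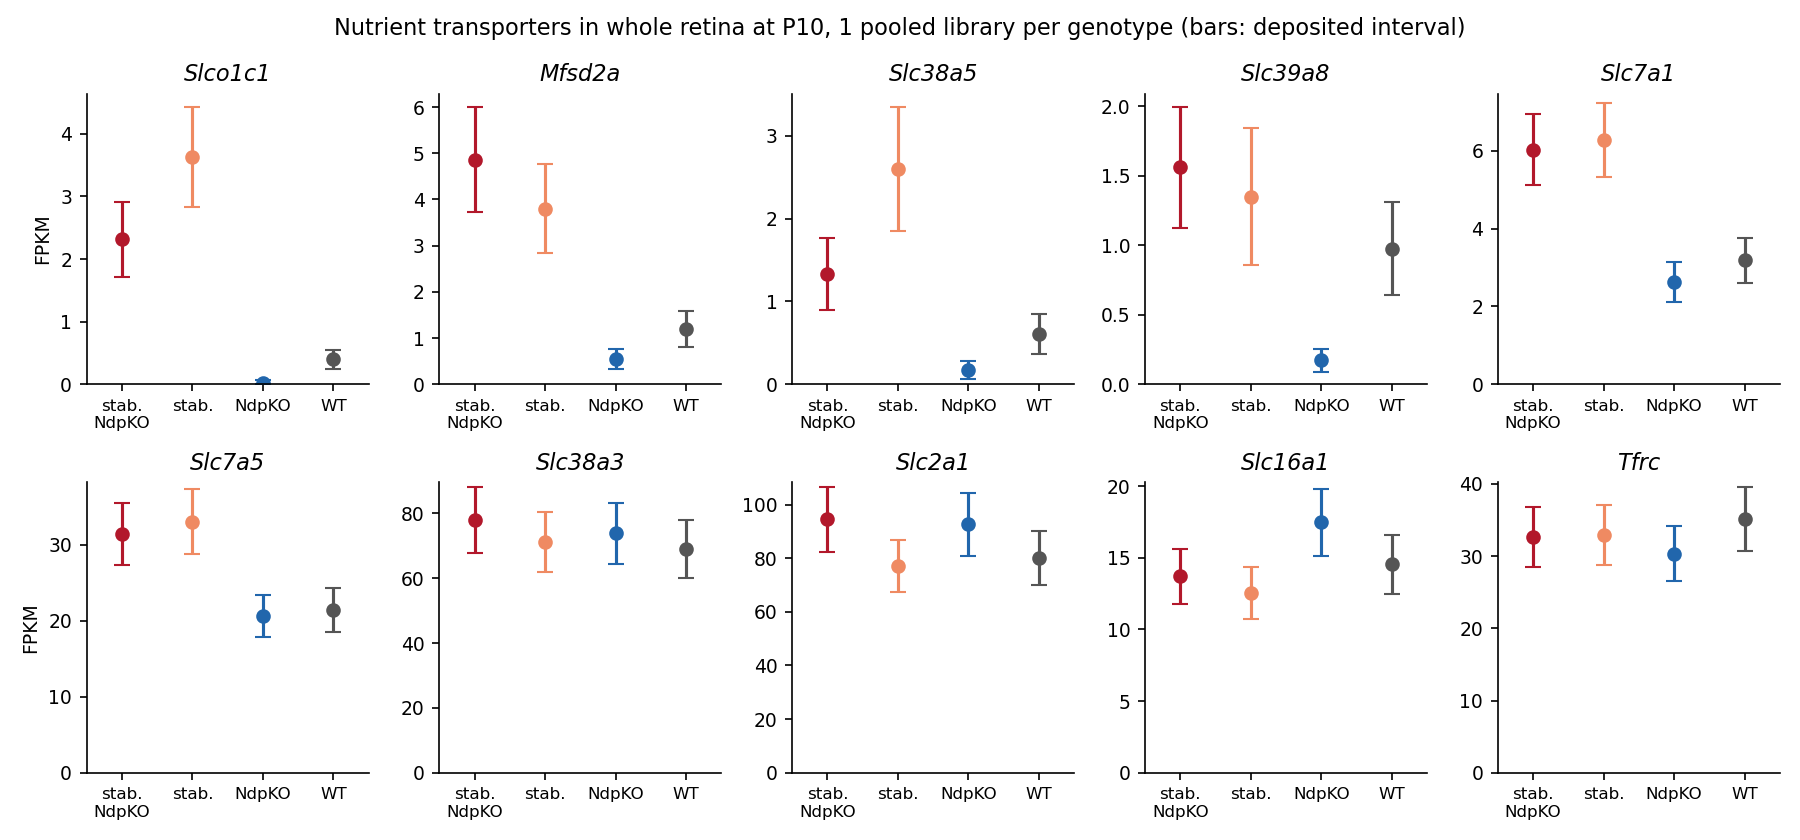
FPKM (vertical, linear, with a scale of its own from 0 for each gene) of the 10 transporters in the stabilized NdpKO, stabilized, NdpKO and WT libraries. Points are values and bars the deposited intervals. Slco1c1 spans 0.0206 FPKM in NdpKO to 3.63 FPKM in the stabilized library, while the intervals of Slc2a1, Slc38a3 and Tfrc overlap throughout.

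Of the lipid and hormone carriers, Mfsd2a moves lysophosphatidylcholine that carries docosahexaenoic acid, and is also known in mouse brain endothelium for keeping transcytosis low. It lies on chromosome 4 at 122946850 to 122961188 on the minus strand (GENCODE M21, mm10), and like the other 9 it is a protein-coding gene. Its level was 4.86 FPKM in the stabilized NdpKO library (interval 3.72 to 6.01), 3.80 FPKM in the stabilized library (2.83 to 4.77), 0.545 FPKM in NdpKO (0.329 to 0.761) and 1.20 FPKM in WT (0.812 to 1.59). Both stabilized libraries were high and overlapped each other, and NdpKO lay below WT with intervals apart. The log2 ratio was 2.36 for the stabilized NdpKO library over NdpKO, 1.34 for the stabilized library over WT and -0.70 for NdpKO over WT. Against WT, the stabilized NdpKO library was higher by 1.66 on the log2 scale. The stabilization ratio was thus 1.02 larger on the log2 scale without Ndp than with it, a difference that cannot be tested with 1 library a genotype.

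Slco1c1 takes up thyroxine at the blood-brain barrier. The gene lies on chromosome 6 at 141524368 to 141570177 on the plus strand. It was at 2.32 FPKM in the stabilized NdpKO library (1.72 to 2.91), 3.63 FPKM in the stabilized library (2.83 to 4.42), 0.0206 FPKM in NdpKO (0 to 0.0602) and 0.396 FPKM in WT (0.242 to 0.550). The NdpKO library held almost none, WT held little, and the intervals of the stabilized libraries overlapped each other and lay above both. The NdpKO value had the interval width of about 1 fragment, for which an exact 95% Poisson interval spans 0.000521 to 0.115 FPKM. On that basis the stabilized NdpKO level was 112 times that of NdpKO, with a counting interval of 19.8 to 4478, and the NdpKO level was 0.0520 of that of WT, with a counting interval of 0.00128 to 0.308. The other fragment numbers, about 121 in the stabilized NdpKO library and 36 in WT, were scaled from that 1 fragment by FPKM and relative depth. Their own interval widths give 57.7 and 44.1. The counting intervals therefore rest on approximate fragment numbers and cover counting error only. The log2 ratios on FPKM + 0.5 were 2.44 for the stabilized NdpKO library over NdpKO, 2.20 for the stabilized library over WT and -0.78 for NdpKO over WT.

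Among the amino acid carriers, Slc38a5 transports glutamine and other neutral amino acids. It lies on the X chromosome at 8271133 to 8280179 on the plus strand. Its level was 1.33 FPKM in the stabilized NdpKO library (0.894 to 1.77), 2.60 FPKM in the stabilized library (1.86 to 3.35), 0.172 FPKM in NdpKO (0.0638 to 0.280) and 0.611 FPKM in WT (0.368 to 0.854). No intervals of any pair of libraries overlapped, so the 4 levels were ordered with NdpKO lowest and the stabilized library highest. The log2 ratio was 1.45 for the stabilized NdpKO library over NdpKO and 1.48 for the stabilized library over WT. Slc38a5 was the 1 transporter at least 1.5-fold apart between the stabilized libraries, at a log2 ratio of -0.76 for the stabilized NdpKO library over the stabilized library, and the ratio of NdpKO over WT was -0.73.

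Slc7a1, the carrier CAT1 for arginine and lysine, lies on chromosome 5 at 148327410 to 148399904 on the minus strand. It was at 6.03 FPKM in the stabilized NdpKO library (5.12 to 6.94), 6.28 FPKM in the stabilized library (5.34 to 7.22), 2.63 FPKM in NdpKO (2.12 to 3.13) and 3.18 FPKM in WT (2.60 to 3.76). The stabilized libraries overlapped each other and stood above both others, which also overlapped. Its log2 ratio was 1.06 for the stabilized NdpKO library over NdpKO, 0.88 for the stabilized library over WT and -0.23 for NdpKO over WT.

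Slc7a5, the light chain LAT1 that carries large neutral amino acids, showed the same grouping with smaller ratios at a higher level. The gene lies on chromosome 8 at 121881150 to 121907694 on the minus strand, and the protein-coding gene Gm20388 overlaps it on the other strand. It was at 31.4 FPKM in the stabilized NdpKO library (27.4 to 35.5), 33.1 FPKM in the stabilized library (28.8 to 37.3), 20.7 FPKM in NdpKO (17.8 to 23.5) and 21.5 FPKM in WT (18.6 to 24.4). The log2 ratio was 0.59 for the stabilized NdpKO library over NdpKO and 0.61 for the stabilized library over WT, and -0.06 for NdpKO over WT. Slc3a2, the heavy chain that LAT1 needs at the cell surface, was at 55.0 FPKM in the stabilized NdpKO library, 53.8 FPKM in the stabilized library, 47.9 FPKM in NdpKO and 42.5 FPKM in WT, and was within 1.5-fold in every comparison.

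Slc38a3, a glutamine transporter that Müller glia also express, lies on chromosome 9 at 107650634 to 107669530 on the minus strand. It was at 78.0 FPKM in the stabilized NdpKO library (67.8 to 88.3), 71.3 FPKM in the stabilized library (62.1 to 80.5), 73.8 FPKM in NdpKO (64.3 to 83.2) and 68.9 FPKM in WT (60.0 to 77.8). All 4 intervals overlapped, and its ratios ran from 0.05 to 0.18 on the log2 scale.

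Among the metal carriers, Slc39a8 (ZIP8) imports zinc and manganese, and Tfrc takes up iron bound to transferrin. Slc39a8 lies on chromosome 3 at 135825279 to 135888572 on the plus strand. It was at 1.56 FPKM in the stabilized NdpKO library (1.13 to 2.00), 1.35 FPKM in the stabilized library (0.861 to 1.84), 0.174 FPKM in NdpKO (0.0909 to 0.257) and 0.977 FPKM in WT (0.644 to 1.31). NdpKO alone stood apart, since the intervals of the other 3 libraries overlapped. Slc39a8 had a log2 ratio of -1.13 for NdpKO over WT, the lowest of the 10 on FPKM + 0.5, though with a pseudocount of 0.1 that of Slco1c1 was lower, at -2.04 against -1.97. It was 1.61 higher in the stabilized NdpKO library than in NdpKO, against 0.33 for the stabilized library over WT. The untested difference between those stabilization ratios was 1.29 on the log2 scale.

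Tfrc, on chromosome 16 at 32608920 to 32632794 on the plus strand, was at 32.7 FPKM in the stabilized NdpKO library, 32.9 FPKM in the stabilized library, 30.3 FPKM in NdpKO and 35.2 FPKM in WT. Its intervals overlapped throughout, with the largest ratio -0.21 for NdpKO over WT. Tfrc is also abundant in red cell precursors. Of 8 erythroid markers, 7 were in the table and 4 were tested. Of those 4, 3 were at least 1.5-fold higher in the stabilized NdpKO library than in NdpKO, and 4 in the stabilized library than in WT. Over all tested genes 1.76% and 1.67% were higher in these comparisons. The 7 summed to 176 FPKM in the stabilized NdpKO library, 164 FPKM in the stabilized library, 75.6 FPKM in NdpKO and 69.8 FPKM in WT, and their part in the Tfrc values was not tested.

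The energy carriers were Slc2a1, the glucose transporter GLUT1, and Slc16a1, the lactate and pyruvate carrier MCT1. Slc2a1 lies on chromosome 4 at 119108711 to 119137983 on the plus strand, with the antisense genes Gm12867 and Gm12868 overlapping it. It was at 94.5 FPKM in the stabilized NdpKO library (82.5 to 106), 77.1 FPKM in the stabilized library (67.4 to 86.8), 92.6 FPKM in NdpKO (80.9 to 104) and 79.9 FPKM in WT (69.8 to 90.0). It was the most abundant of the 10 in every library, with intervals that overlapped in every comparison and those of Slc38a3. Slc16a1, on chromosome 3 at 104638668 to 104658462 on the plus strand, was at 13.7 FPKM in the stabilized NdpKO library, 12.6 FPKM in the stabilized library, 17.5 FPKM in NdpKO and 14.5 FPKM in WT. Its stabilization ratios were -0.34 without Ndp and -0.20 with Ndp, and the intervals overlapped. Because Slc2a1, Slc38a3 and Slc16a1 are also expressed by neurons, glia or pigment epithelium, the share of their whole-retina RNA that comes from endothelial cells was not measured.

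The order of levels was largely kept between libraries at the top and not at the bottom. Slc2a1 and Slc38a3 came first, Slc7a5 and Tfrc next, and then Slc16a1, Slc7a1 and Mfsd2a, in all 4. Tfrc and Slc7a5 overlapped in both stabilized libraries and stood apart in NdpKO and WT. Slco1c1 was the least abundant in NdpKO and WT but lay above Slc38a5 and Slc39a8 in both stabilized libraries. Its interval overlapped that of Slc38a5 in WT and in both stabilized libraries, and that of Slc39a8 in the stabilized NdpKO library.

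Promoter windows were searched for every transporter that had one, and are shown for those with the largest ratios. The windows run from 250 bases before to 50 bases after an annotated start (RefSeq, GRCm38.p6), and 8 of the 10 genes had at least 1, in 11 windows. The letters CTTTGAA and CTTTGAT, as bound by TCF/LEF factors, AACAATG and AACAATA, as bound by SOX factors, and ACGTGC, a hypoxia response core, were searched on both strands, and matches are in capitals. The sequences are written 5′ to 3′ on the strand of the gene. For Slc7a1 the window with matches is shown, which is at a start inside the gene. The other Slc7a1 window, at the 5′ end of the gene, had none. For Slc39a8 the upstream of its pair of windows is shown.
Slco1c1, chr6:141524104-141524403, plus strand: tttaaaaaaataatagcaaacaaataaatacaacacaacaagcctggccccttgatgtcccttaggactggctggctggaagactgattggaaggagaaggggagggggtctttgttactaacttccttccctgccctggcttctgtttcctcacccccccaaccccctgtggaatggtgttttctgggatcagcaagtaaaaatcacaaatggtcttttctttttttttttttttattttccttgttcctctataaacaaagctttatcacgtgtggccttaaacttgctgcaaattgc
Mfsd2a, chr4:122961139-122961438, minus strand: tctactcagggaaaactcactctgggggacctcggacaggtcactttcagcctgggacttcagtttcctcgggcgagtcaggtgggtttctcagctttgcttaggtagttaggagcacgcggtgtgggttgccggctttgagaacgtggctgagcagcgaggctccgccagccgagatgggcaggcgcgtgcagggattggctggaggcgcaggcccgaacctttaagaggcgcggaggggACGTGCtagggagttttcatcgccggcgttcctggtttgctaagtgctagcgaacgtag
Slc38a5, chrX:8271131-8271430, plus strand: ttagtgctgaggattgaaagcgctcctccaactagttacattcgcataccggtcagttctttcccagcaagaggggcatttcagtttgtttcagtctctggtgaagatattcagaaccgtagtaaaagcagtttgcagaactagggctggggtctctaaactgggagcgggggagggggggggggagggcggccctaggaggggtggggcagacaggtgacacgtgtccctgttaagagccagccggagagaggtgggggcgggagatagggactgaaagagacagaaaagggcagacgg
Slc7a1, chr5:148392766-148393065, minus strand: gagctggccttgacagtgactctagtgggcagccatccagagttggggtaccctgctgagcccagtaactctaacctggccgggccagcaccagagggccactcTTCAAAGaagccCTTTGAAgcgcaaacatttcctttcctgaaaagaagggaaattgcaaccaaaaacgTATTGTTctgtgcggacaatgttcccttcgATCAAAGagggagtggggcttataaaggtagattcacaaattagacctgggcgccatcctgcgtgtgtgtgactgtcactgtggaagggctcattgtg
Slc39a8, chr3:135825029-135825328, plus strand: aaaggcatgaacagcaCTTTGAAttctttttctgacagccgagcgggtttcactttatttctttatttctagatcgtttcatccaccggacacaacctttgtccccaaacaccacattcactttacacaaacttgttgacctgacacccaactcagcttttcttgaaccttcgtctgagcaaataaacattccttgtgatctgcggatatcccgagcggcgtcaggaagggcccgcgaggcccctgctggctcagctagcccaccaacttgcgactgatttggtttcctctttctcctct

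No listed motif was found in the windows of Slco1c1 and Slc38a5, and other forms of these binding sites were not searched. The Slc7a1 window at the internal start held CTTTGAA on the sense strand at -134 and on the antisense strand at -146. It also held CTTTGAT on the antisense strand at -48 and AACAATA on the antisense strand at -78. Positions are counted from the annotated start to the first base of the match. The Slc39a8 window shown held CTTTGAA at -234, and that of Mfsd2a held ACGTGC at -9. The Slc39a8 window not shown held ACGTGC at -70. A TCF/LEF motif was present in 2 of the 11 windows, against 8.65% of 32851 windows of all genes, and ACGTGC was present in 5 of 11, against 5.91%. The pair of Tfrc windows overlap and share their match, and 3 of the 5 windows with ACGTGC belong to Slc2a1 and Tfrc, which were within 1.5-fold in every comparison.

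Counted over the 10, 5 were at least 1.5-fold higher in the stabilized library than in WT and 0 were lower, where 1.67% of tested genes were higher and 1.71% lower. In the stabilized NdpKO library, 6 were higher than in NdpKO and 0 lower, where 1.76% of tested genes were higher and 0.92% lower. The call of Slc7a5 there, at 0.59, is lost with a pseudocount of 1, re-centred on the median or rescaled to the same total, at 0.58, 0.56 and 0.57, which leaves 5. In these settings 1.51%, 1.62% and 1.89% of tested genes were higher. Slco1c1, Slc38a5, Slc39a8 and Mfsd2a passed the filter only through the stabilized libraries, so the filter itself favoured higher calls for them. With a minimum of 5 FPKM, which leaves out these and Slc7a1, 1, Slc7a5, was higher in each stabilization comparison. In NdpKO, 4 were lower than in WT and 0 higher, where 1.22% of tested genes were lower and 0.966% higher. That count is 1, Slc39a8 alone, with a pseudocount of 1 or at 2-fold, and 0 with a minimum of 5 FPKM, which leaves out all 4. With a pseudocount of 1, 1.07% of tested genes were lower in NdpKO than in WT. Set against WT, the stabilized NdpKO library was higher for 4, Mfsd2a, Slco1c1, Slc38a5 and Slc7a1, and lower for 0, where 1.79% of tested genes were higher and 1.07% lower. Slc7a5 had a ratio of 0.54 there, just under 1.5-fold, with intervals apart. Set against the stabilized library, the stabilized NdpKO library was lower for Slc38a5 alone, where 0.692% of tested genes were lower and 0.981% higher. The median log2 ratio of the 10 was 0.47 for the stabilized library over WT, 0.83 for the stabilized NdpKO library over NdpKO and -0.22 for NdpKO over WT, beside medians over all tested genes of -0.02, 0.03 and -0.02. At 2-fold, 3 were higher in the stabilized library than in WT and 2 in the stabilized NdpKO library than in WT. The shares of tested genes above are those at 1.5-fold with a minimum of 1 FPKM. Shares at 2-fold or with a minimum of 5 FPKM are not given here. The comparisons share libraries and are not independent.

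**Figure D2:**
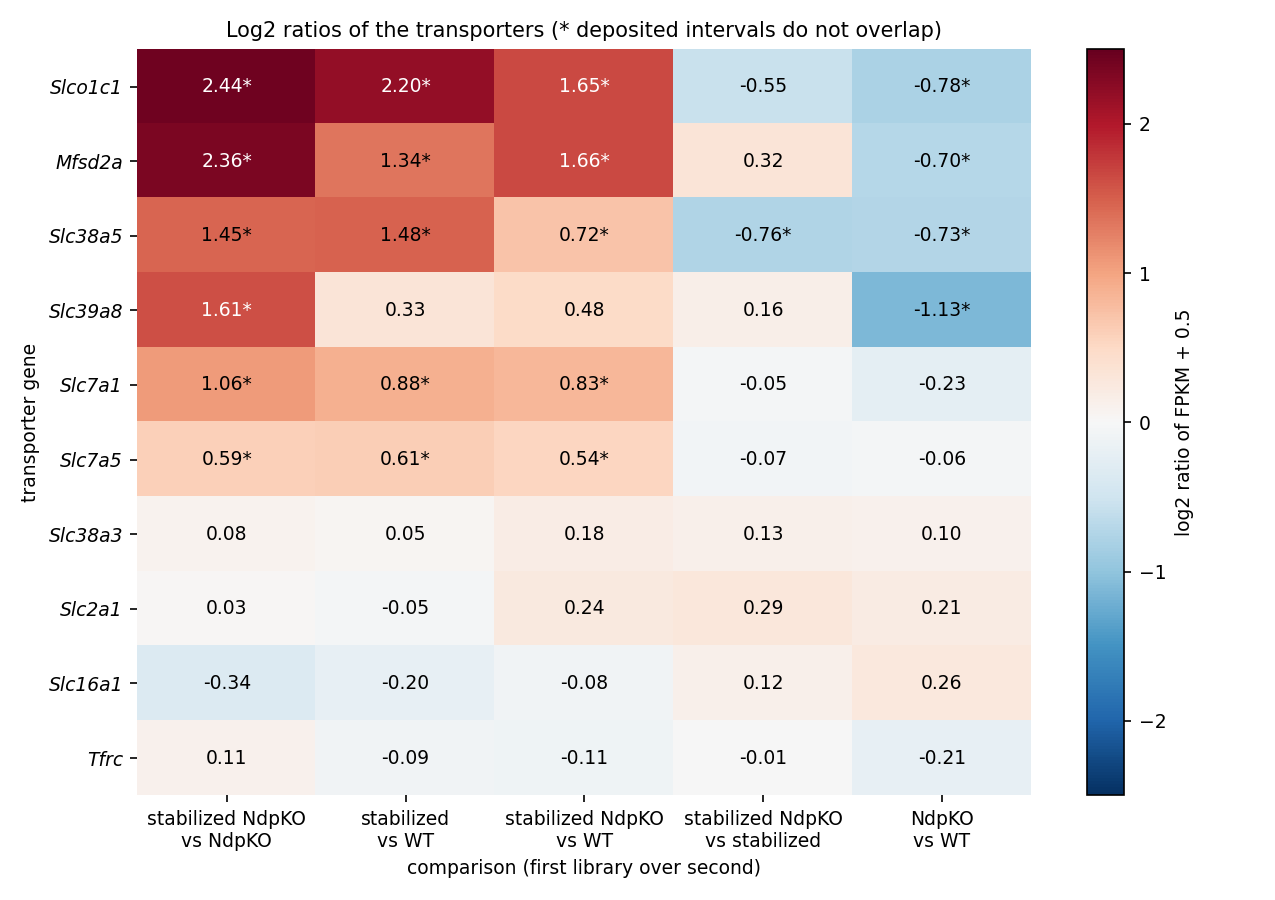
Log2 ratio on FPKM + 0.5 of each transporter (down the page) in the 5 comparisons (across), as colour and number, with an asterisk where the deposited intervals do not overlap. Slco1c1 and Mfsd2a reach 2.44 and 2.36 for the stabilized NdpKO library over NdpKO, while Slc2a1, Slc38a3, Slc16a1 and Tfrc have no asterisk.

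The effect of stabilization over both Ndp states was tested with limma on all 13150 genes, with Ndp state in the model and 1 residual degree of freedom. None of the 10 passed at an adjusted p under 0.05, where 0.038% of tested genes rose and 0.106% fell, and at an unadjusted p under 0.05 there were 5 higher and 1 lower, beside 1275 higher and 837 lower of all tested genes. Slco1c1 came closest, with a log2 change of 2.32 ± 0.16 (SE) and an adjusted p of 0.062 in limma's test with Benjamini-Hochberg adjustment. The estimates were 1.85 ± 0.27 (SE, adjusted p = 0.22) for Mfsd2a, 1.46 ± 0.15 (adjusted p = 0.14) for Slc38a5 and 0.97 ± 0.087 (adjusted p = 0.12) for Slc7a1 in the same limma fit. Slc7a5 had 0.60 ± 0.061 (adjusted p = 0.14) and Slc39a8 0.97 ± 0.35 (adjusted p = 0.31) in the limma fit. The 95% interval of the change was -0.22 to 0.20 for Slc2a1, -0.13 to 0.26 for Slc38a3, -0.21 to 0.22 for Tfrc and -0.46 to -0.08 for Slc16a1, whose adjusted p in limma was 0.26. Without 235 short RNA genes, a setting chosen after seeing the data, Slco1c1, Slc7a1, Slc38a5, Mfsd2a and Slc7a5 passed, with limma adjusted p of 0.000387 to 0.00522. Far more of all tested genes passed in that setting too, with the counts given under processing below. On simulated libraries the fit called more unchanged genes than its threshold states, so these calls are to be read with caution.

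**Figure D3:**
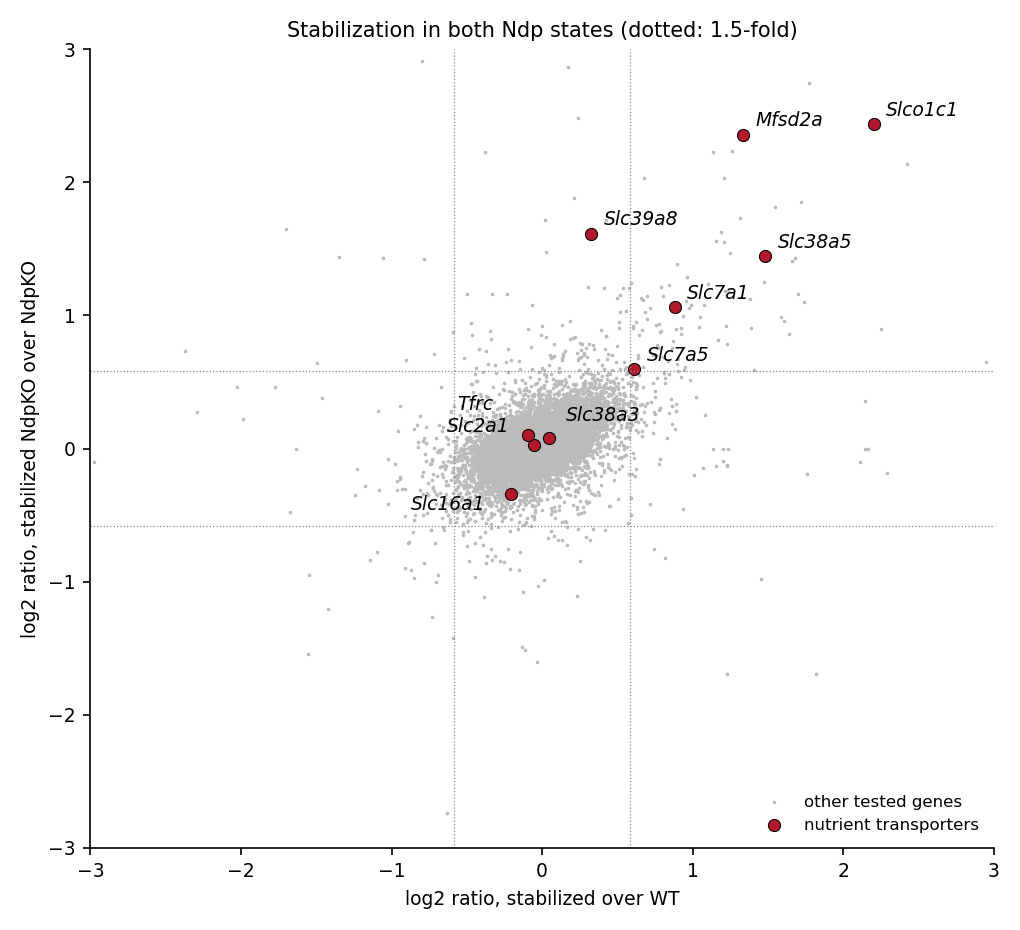
Log2 ratio of the stabilized NdpKO library over NdpKO (vertical) against that of the stabilized library over WT (horizontal) for 13009 tested genes in grey, with the 10 transporters named; 141 genes lie outside the axes. Mfsd2a and Slc39a8 lie furthest above equal ratios, by 1.02 and 1.29.

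Markers of vascular and some other cells also differed between the libraries. Of 16 endothelial markers 13 were tested, and 9 were at least 1.5-fold higher in the stabilized NdpKO library than in NdpKO, 6 in the stabilized library than in WT and 0 in NdpKO than in WT. Over all tested genes 1.76%, 1.67% and 0.966% were higher in these comparisons, and 1.79% in the stabilized NdpKO library over WT. Emcn went the other way in both stabilization comparisons, at log2 ratios of -0.30 without Ndp and -0.36 with Ndp. None of the 16 was listed at 0. The 16 summed to 105 FPKM in the stabilized NdpKO library, 103 FPKM in the stabilized library, 70.9 FPKM in NdpKO and 72.2 FPKM in WT. The 13 endothelial genes were on average 0.75 higher on the log2 scale in the stabilized NdpKO library than in NdpKO and 0.67 higher in the stabilized library than in WT, with -0.02 for NdpKO over WT. The 8 mural markers summed to 32.8 FPKM in the stabilized NdpKO library, 34.7 FPKM in the stabilized library, 13.8 FPKM in NdpKO and 21.5 FPKM in WT, and 4 of the 5 tested were higher in each stabilization comparison. Most of these sums was Rgs5, at 9.63 FPKM in NdpKO and 17.6 FPKM in WT, a log2 ratio of -0.84. The other 4 tested mural markers were within 1.5-fold between NdpKO and WT. Of the tested vascular markers, Tie1 (endothelial) and Acta2, Abcc9 and Notch3 (mural) were under 1 FPKM in NdpKO and in WT. They passed the filter only through the stabilized libraries, so the filter itself favoured higher calls for them. The 8 Müller glia markers summed to 892 FPKM in the stabilized NdpKO library, 821 FPKM in the stabilized library, 913 FPKM in NdpKO and 852 FPKM in WT. Of these 8, 0 were higher in either stabilization comparison. Aqp4 alone was lower in the stabilized library than in WT, at -0.85, where 1.71% of tested genes were lower. Its ratio without Ndp was -0.50, and its intervals were apart in both. The 5 astrocyte markers summed to 27.3 FPKM in the stabilized NdpKO library, 22.1 FPKM in the stabilized library, 17.9 FPKM in NdpKO and 14.4 FPKM in WT, and of the 4 tested 1 was higher in the stabilized NdpKO library than in NdpKO, 2 in the stabilized library than in WT and 3 in the stabilized NdpKO library than in WT. The 8 pigment epithelium markers summed to 52.2 FPKM in the stabilized NdpKO library, 71.8 FPKM in the stabilized library, 67.6 FPKM in NdpKO and 59.7 FPKM in WT, and of the 6 tested 3 were higher in the stabilized library than in WT and 0 in the stabilized NdpKO library than in NdpKO.

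Set against the mean of the endothelial genes, the 10 separated further. Slco1c1 remained higher by 1.69 in the stabilized NdpKO library over NdpKO and by 1.53 in the stabilized library over WT, and Mfsd2a by 1.61 and 0.66 on the log2 scale. Slc38a5 was higher by 0.70 and 0.81 in those comparisons, and for the stabilized NdpKO library over WT its ratio became 0.00. Slc7a1 kept 0.32 and 0.21, and Slc7a5 had -0.15 and -0.06, so its difference was no larger than the endothelial mean. Slc39a8 kept 0.87 without Ndp and had -0.35 with it. The deficits in NdpKO against WT were nearly as large as before, at -1.11 for Slc39a8, -0.76 for Slco1c1, -0.70 for Slc38a5 and -0.68 for Mfsd2a. Subtracting an endothelial mean has no bearing on a gene whose RNA comes mainly from other cells, and for Slc2a1, Slc16a1, Slc38a3 and Tfrc it gave ratios of -0.62 to -1.09 in the stabilization comparisons. How much of any ratio comes with the endothelial, mural, astrocyte or pigment epithelium markers was not tested.

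**Figure D4:**
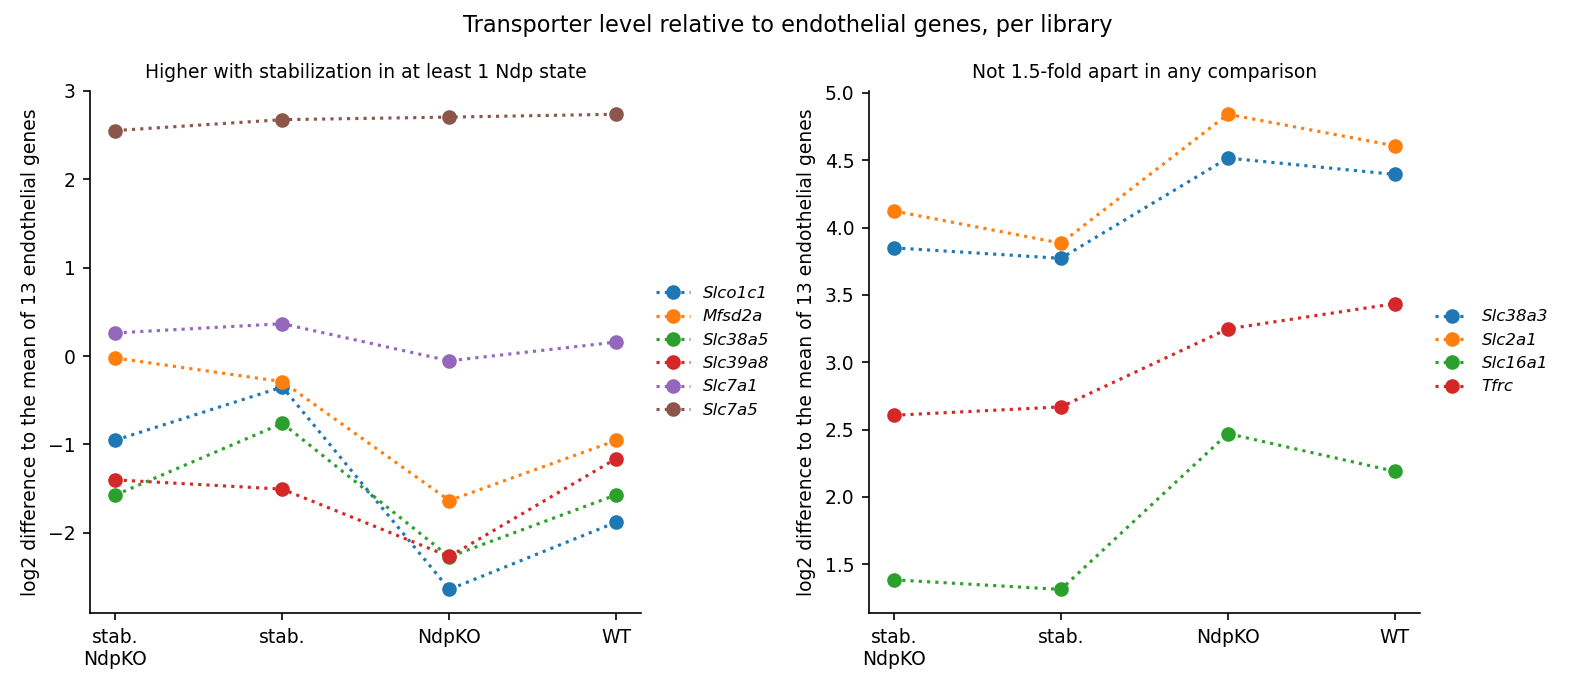
Log2 of FPKM + 0.5 of each transporter minus the mean log2 of 13 endothelial genes, by library, with the 6 transporters that were at least 1.5-fold higher with stabilization in at least 1 Ndp state on the left and the other 4 on the right, on separate scales. Dotted lines only join the points of a gene. Slco1c1 and Mfsd2a stay above NdpKO in the stabilized NdpKO library by 1.69 and 1.61, and Slc7a5 is close to level.

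Of 46 genes that supply or use the same substrates 41 were tested. In the stabilized NdpKO library 1 was at least 1.5-fold higher than in NdpKO and 0 lower, namely Slc40a1, the iron exporter ferroportin, at a log2 ratio of 0.92, where 1.76% of all tested genes were higher. In the stabilized library 3 were higher than in WT, Mt2, a metallothionein, at 0.89, Trf, transferrin, at 0.61 and Slc40a1 at 0.60, and 1 was lower, Dio2, the deiodinase that activates thyroxine, at -0.94, where 1.67% of all tested genes were higher and 1.71% lower. The intervals of Mt2 and Slc40a1 overlapped in that comparison, and those of Trf and Dio2 were apart. In NdpKO 2 were higher than in WT and 0 lower, Hk2, a hexokinase, at 0.64 and Trf at 0.60, both with intervals apart, where 0.966% of all tested genes were higher. Trf was at 9.26 FPKM in the stabilized NdpKO library, 9.83 FPKM in the stabilized library, 9.76 FPKM in NdpKO and 6.26 FPKM in WT, so it was lowest in WT and similar in the other libraries. All of the genes higher in a stabilization comparison belonged to the 12 tested of iron and other metals, and of 8 tested for amino acids, 9 for glucose and lactate and 7 for lipids 0 were 1.5-fold apart in either stabilization comparison. The median over the 41 was 0.06 for the stabilized NdpKO library over NdpKO and 0.07 for the stabilized library over WT, and 0 of the 41 passed the limma test after adjustment, with 7 higher and 5 lower at an unadjusted p under 0.05. At that limma threshold 1275 of all 13150 tested genes were higher and 837 lower. The stabilized NdpKO library over WT had 2 higher, Slc40a1 at 0.70 and Mt2 at 0.70, where 1.79% of all tested genes were higher. The intervals of Mt2 overlapped there, and those of Slc40a1 were apart.

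Of 20 other transporters known from brain or retinal endothelium 14 were tested. In the stabilized NdpKO library Slco2b1, an organic anion transporter, was higher than in NdpKO at a log2 ratio of 1.02 and Slc40a1 at 0.92, and Slc29a1, a nucleoside transporter, was lower at -0.73. Of all tested genes 1.76% were higher and 0.92% lower in that comparison. In the stabilized library Slco2b1 was higher than in WT at 0.68 and Slc40a1 at 0.60, both with intervals that overlapped. Slco2b1, at 0.454 FPKM in NdpKO and 0.693 FPKM in WT, passed the filter only through the stabilized libraries. Slc7a2, a further carrier of cationic amino acids, was lower in the stabilized library than in WT at -0.85, with intervals apart. Of all tested genes 1.67% were higher and 1.71% lower there. None of the 14 was 1.5-fold apart between NdpKO and WT, and 0 of the 14 passed the limma test after adjustment, with 4 higher and 2 lower at an unadjusted p under 0.05. Of all 13150 tested genes 1275 were higher and 837 lower at that limma threshold.

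The genes with the most similar profiles were found by Euclidean distance between log2 values centred over the 4 libraries, so the distances describe 4 points only. For Mfsd2a they were Serpina3h at a distance of 0.25, Eltd1 at 0.35 and Pglyrp1 at 0.36. For Slc38a5 they were Snord16a at 0.32, Vwa1 at 0.52 and Eltd1 at 0.55, and for Slco1c1 Snora75 at 0.28, Gdpd3 at 0.74 and Prnd at 0.76. For Slc7a1 they were Ets1 at 0.070, Aldh3a2 at 0.10 and Lgals9 at 0.12, and for Slc7a5 Esyt1 at 0.045, Mcm6 at 0.061 and Perp at 0.071. For Slc39a8 they were Snord33 at 0.30, BC028528 at 0.31 and Hbb-b1, a beta-globin gene, at 0.32. Eltd1, an adhesion receptor of endothelial cells, was near both Mfsd2a and Slc38a5. Snord16a, Snora75 and Snord33 are short RNA genes, which the length scaling of FPKM measures poorly.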

How the data were processed

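The authors deposited 1 table with an FPKM, 2 interval bounds and a status per gene and library, made per the submitters' processing notes with TopHat and Cuffdiff on mm10. Per the labels' protocols, RNA was extracted with Trizol and RNeasy and the TruSeq RNA Sample Prep Kit v2 was used for libraries. No version, annotation, strand setting, read total or interval level is given in the sources used, and genes that overlap others, such as Slc7a5 and Slc2a1, are uncertain. Columns were assigned by the sample number in the labels.

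Log2 ratios used FPKM plus a pseudocount of 0.5. Genes were tested where the mean reached 1 FPKM and every status was OK, which 145 genes did not have. Limma 3.58.1 (R 4.3.3, with a trend, two-sided, Benjamini-Hochberg over all tested genes) was run after Python 3.11.15, and was tested on simulated data. It assumes that stabilization adds the same in both Ndp states. Relative depth was approximated from interval widths, since FPKM carry no read totals.

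The transporters, the lists, the named-gene rule and the tests were chosen with earlier results of these data known. Named were all 10 transporters, each partner or other barrier transporter 1.5-fold apart in a stabilization comparison and the 3 closest profiles of each transporter that varied 1.5-fold. Slc3a2 and the genes in the closing part on low transporters were named after their values were seen. Other pseudocounts, minimum levels, folds, a rescaled total and fits without the trend were tried. Positions came from GENCODE M21 on mm10 and promoters from RefSeq on GRCm38.p6.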

Additional observations from a re-analysis of the deposited data

Results flagged for a closer look

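Loss of Ndp had ratios of opposite sign with and without stabilization for Mfsd2a and Slc39a8. On the log2 scale, Mfsd2a was 0.32 for the stabilized NdpKO library over the stabilized library and -0.70 for NdpKO over WT. Slc39a8 was 0.16 for the stabilized NdpKO library over the stabilized library and -1.13 for NdpKO over WT. The intervals of the stabilized libraries overlapped for both genes, and the difference between the ratios was not tested, as there is 1 library per genotype.

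Stabilization had ratios of opposite sign in the Ndp states for Slc2a1 and Tfrc. Slc2a1 was 0.0286 for the stabilized NdpKO library over NdpKO and -0.0512 for the stabilized library over WT. Tfrc was 0.105 for the stabilized NdpKO library over NdpKO and -0.0947 for the stabilized library over WT. All of these intervals overlapped, and the difference was not tested.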

How the results depend on the processing

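No paired analysis was possible because each genotype had 1 library and the labels carry no replicate numbers; leaving out a library would end every comparison it is in. Of the log2 ratios of the 10 transporters under other pseudocounts and scalings, 165 stayed within an SE read from the deposited intervals, 35 moved further and none that was 1.5-fold reversed. With a pseudocount of 1 FPKM, 1 was lower in NdpKO than in WT in place of 4, where 1.07% of tested genes were lower. With 2-fold in place of 1.5-fold, 1 was lower in NdpKO than in WT, 3 were higher in the stabilized library than in WT, 2 were higher in the stabilized NdpKO library than in WT and 0 were lower than in the stabilized library. A minimum of 5 FPKM leaves out the 5 low transporters by construction, and the counts became 0 lower in NdpKO, 1 higher in each stabilization comparison, and 0 for the stabilized NdpKO library against WT and against the stabilized library. With a pseudocount of 0.1 FPKM, or values rescaled to the same total, which raises all values, 2 were lower in the stabilized NdpKO library than in the stabilized library. In the limma fit, 1 rose with a pseudocount of 1, with a minimum of 0.5 FPKM or re-centred on the median, 2 rose without the trend and 5 rose without short RNA genes; the cause was not tested. Without short RNA genes, 185 of all genes rose and 115 fell, against 5 and 14, and with no minimum 0 genes did. The limma adjusted p of Slco1c1 ran from 0.000387 to 0.451 over these settings. Depth limits Slco1c1, Slc38a5 and Slc39a8 in NdpKO, and animal spread is not measured.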

Other observations

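Of the 20 other barrier transporters, 6 were below 1 FPKM on average and were not tested. Slc22a8, an organic anion transporter of brain endothelium, was at 0.894 FPKM in the stabilized NdpKO library, 1.34 FPKM in the stabilized library, 0.419 FPKM in NdpKO and 0.443 FPKM in WT, with intervals apart only between the stabilized library and WT among the 5 comparisons. Slc35f2, a solute carrier, was at 1.01 FPKM in the stabilized NdpKO library, 1.08 FPKM in the stabilized library, 0.372 FPKM in NdpKO and 0.647 FPKM in WT, with intervals apart only between the stabilized NdpKO library and NdpKO. Slco1a4, an organic anion transporter, was highest in WT, at 0.501 FPKM in the stabilized NdpKO library, 0.547 FPKM in the stabilized library, 0.383 FPKM in NdpKO and 0.692 FPKM in WT, and its intervals overlapped in all 5 comparisons, as did those of Slc6a20a and Slc19a3. Slc52a3, a riboflavin transporter, was at 0.163 FPKM in the stabilized NdpKO library, 0.332 FPKM in the stabilized library, 0 FPKM (as listed) in NdpKO and 0.0344 FPKM in WT, with intervals apart in both stabilization comparisons. The NdpKO interval was listed as 0 to 0, so any lower bound above 0 counts as apart from it.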
